A study of Mus musculus with 8 samples.

Results

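The genes examined were 8 transcription factors, namely Hnf4a, Gata6, Cdx1, Cdx2, Klf4, Klf5, Elf3 and Pitx1. All probes that carry one of these gene names on the array were taken, which gave 8 probes, 1 for each gene, of 39429 probes with 31791 gene names in all. The cells were IEC10, a single line of immortalized mouse intestinal epithelial cells made from a transgenic mouse in which the Mx2 promoter drives firefly luciferase. All groups carry that transgene. The cells grew on transwell inserts for 21 days and were then left untreated (control, 2 arrays, replicates 2 and 3) or received IFN-λ2 at 20 ng/mL (3 arrays) or IFN-β at 500 U/mL (3 arrays) for 9 h. Both interferons, which share a signaling pathway below different receptors, were thus compared with untreated cells and with each other.

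As background, Hnf4a is a nuclear receptor that maintains the absorptive enterocyte program, and Cdx1 and Cdx2 are caudal homeobox factors that give the intestinal epithelium its identity. Gata6 is a zinc finger factor of the endoderm. Klf4 and Klf5 are Krüppel-like factors, of which Klf4 is associated with differentiated cells and Klf5 with dividing crypt cells. Elf3 is an Ets factor of epithelia. Pitx1 is a homeobox factor best known from the hindlimb and the pituitary, and it is not a classical factor of the intestinal epithelium.

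With IFN-λ2, Hnf4a fell sharply and the Pitx1 signal was higher, and Gata6 was modestly higher with a call close to the threshold that was lost in most fits without 1 array, whereas none of the members passed the test with IFN-β. Klf4, Klf5 and Elf3 were well above background on every array and did not pass the test in any comparison. Cdx2 was not measured above background on any array, and Cdx1 was close to background on all arrays but one. All members except Cdx2 were thus measured on at least 4 of the 8 arrays. Values are given in normalized units, which are the processed signals of the scanner software scaled so that the 75th percentile of each array is 1500. Values under 15 were set to 15, the lower threshold. A probe was taken as measured where the scanner software marked it as well above background. Differences between groups are log2 differences, and a gene passed the test at an adjusted p under 0.05 (limma). The labels do not say whether replicates came from separate cultures, so p-values measure the spread between these samples, which may be technical.

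**Figure D1:**
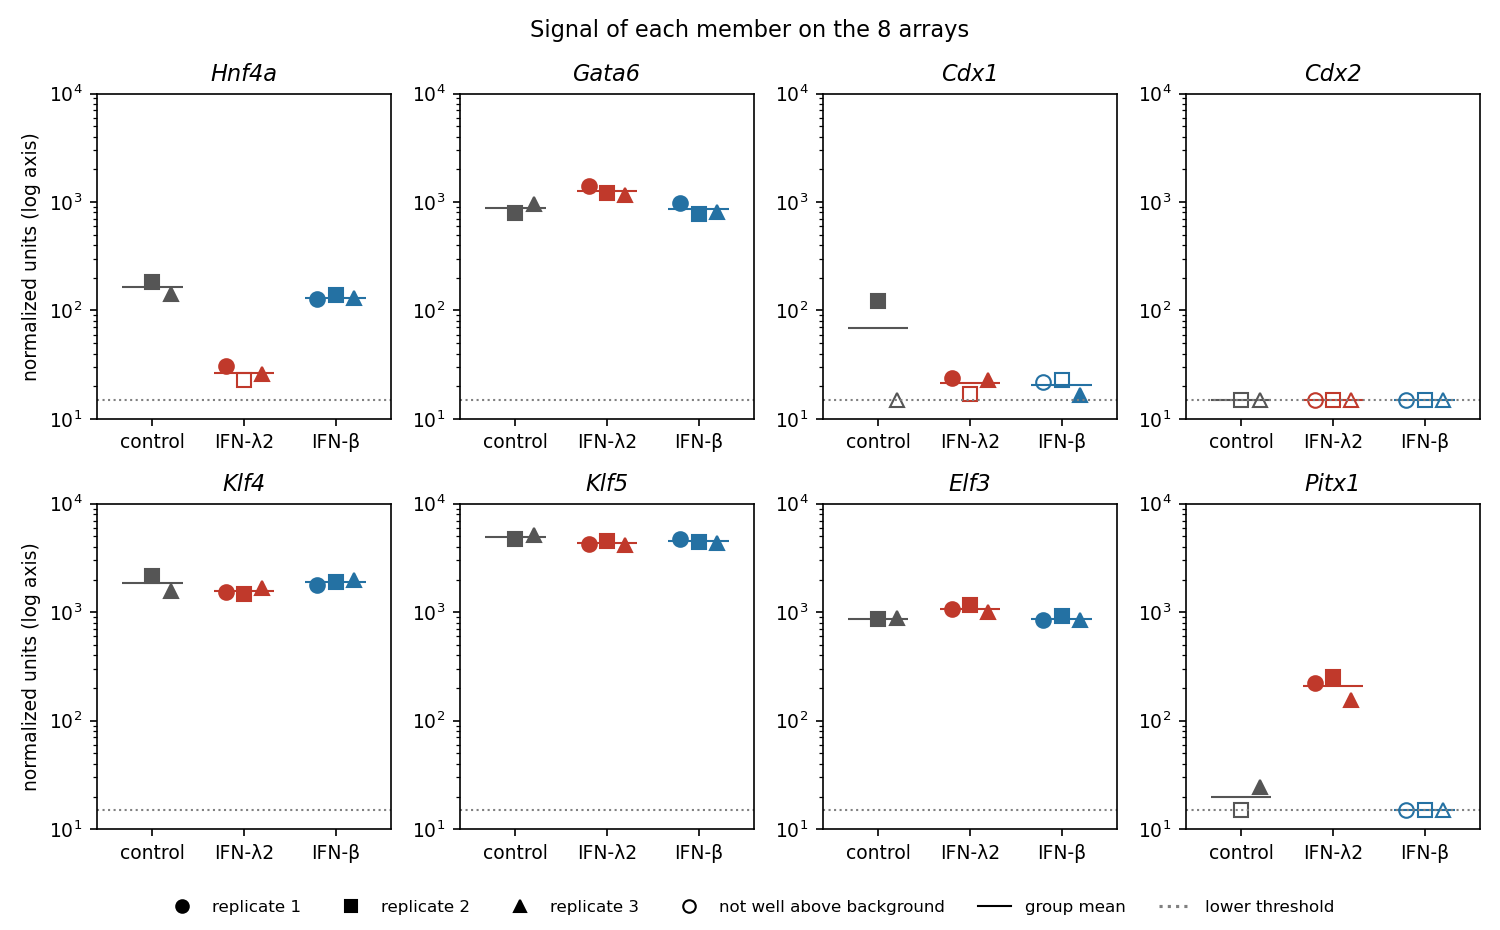
Normalized units (log axis) of each member on the 8 arrays, by group, with 1 symbol per replicate, the group mean as a line and the lower threshold of 15 as a dotted line. Open symbols mark arrays where the probe was not well above background. The 3 IFN-λ2 arrays lie below all others for Hnf4a, between 23.0 and 31.0 units, and above all others for Pitx1, between 153.7 and 251.4 units.

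The promoters of Hnf4a are shown because Hnf4a is the member with the largest tested change. RefSeq lists Hnf4a with a pair of starts on the plus strand of chromosome 2, and the 250 bases before each start are given for GRCm38.p6, at chr2:163506607-163506856 and chr2:163546905-163547154. Capitals mark the match to a Gata site (AGATAA) and the matches to a Klf site (CACCC, or GGGTG where the match is on the other strand).
Hnf4a, first start: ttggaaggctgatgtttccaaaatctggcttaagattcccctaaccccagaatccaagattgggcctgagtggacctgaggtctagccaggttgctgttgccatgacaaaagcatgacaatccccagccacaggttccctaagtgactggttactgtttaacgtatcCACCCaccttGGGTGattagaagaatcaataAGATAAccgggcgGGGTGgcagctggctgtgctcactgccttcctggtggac
Hnf4a, second start: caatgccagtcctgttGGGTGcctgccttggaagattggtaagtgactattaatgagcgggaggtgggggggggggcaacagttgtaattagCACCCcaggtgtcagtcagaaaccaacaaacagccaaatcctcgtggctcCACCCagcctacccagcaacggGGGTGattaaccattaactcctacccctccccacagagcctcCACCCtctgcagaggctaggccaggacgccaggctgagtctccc

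The first Hnf4a promoter holds the Gata letters from base -52 to -47 before the start and 3 Klf matches, and the second holds 5 Klf matches and no Gata match. No matches overlapped. In the RefSeq table, 5 promoters of 4 members were found (Hnf4a with 2, Elf3, Klf4 and Cdx2), each from 250 bases before to 50 after the start, and they were searched on both strands. The Gata letters stood in 1 of the 5, against 11.2% of all 32851 promoters of that length, and the Klf letters in 4 of the 5, against 57.5%. Neither the core of the interferon-stimulated response element (GAAANNGAA, in 8.56% of all promoters) nor the gamma-activated site (TTCNNNGAA, in 8.3%) was found in these 5 windows. The same held for a Cdx site (TTTATG, 11.9%) and an Hnf4 site (CAAAGTCC, in 467 of the 32851 promoters). A match is a description of the letters in this window.

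The array probe of Hnf4a lies at chr2:163398548-163398607 on the plus strand of mm9, the build of the array files. Hnf4a read 184.7 and 141.4 units on the control arrays of replicates 2 and 3. It read 31.0, 23.0 and 25.8 units on the IFN-λ2 arrays of replicates 1, 2 and 3, and 127.9, 137.5 and 128.9 units on the IFN-β arrays. The IFN-λ2 arrays were the 3 lowest, and no group overlapped with another. The group means were 163 ± 30.6 units for control (SD, n = 2), 131 ± 5.29 for IFN-β (SD, n = 3) and 26.6 ± 4.06 for IFN-λ2 (SD, n = 3).

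With IFN-λ2, Hnf4a fell by 2.61 on the log2 scale relative to control (SE 0.156, 95% confidence interval -2.98 to -2.24, adjusted p = 9.67e-05). Relative to IFN-β it fell by 2.32 (SE 0.140, adjusted p = 0.000305). Of the 3 IFN-λ2 arrays, 2 measured Hnf4a above background, and the array of replicate 2, which has the highest background of all, did not. With each IFN-λ2 array taken at its lowest signal well above background, or at the probe's own value if higher, Hnf4a was at least 5.42-fold lower than in control, and at least 4.41-fold lower than with IFN-β. Between IFN-β and control the log2 difference was -0.30 (adjusted p = 0.523), although the groups did not overlap. Within each slide, which holds the arrays of 1 replicate number, the log2 difference of IFN-λ2 to control was -3.01 and -2.45, and that to IFN-β was -2.05, -2.58 and -2.32. With normexp background correction, which adds an offset and compresses dim probes, the log2 differences shrank to -1.03 relative to control and -0.85 relative to IFN-β, and both passed the test (adjusted p = 0.0154 and 0.0295). In these bulk samples, fewer cells with the transcript and less transcript per cell cannot be told apart.

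Gata6 was measured on all arrays. Its probe lies at chr18:11085039-11085097 (mm9, plus strand). It read 787.9 and 956.9 units on the control arrays, 1412, 1206 and 1169 units with IFN-λ2, and 972.9, 781.2 and 816.8 units with IFN-β. All 3 IFN-λ2 arrays were above the other 5, while control and IFN-β overlapped. The rise with IFN-λ2 was 0.53 on the log2 scale relative to control (SE 0.141, adjusted p = 0.0414), or 1.45-fold, and 0.56 relative to IFN-β (SE 0.127, adjusted p = 0.0341). Between IFN-β and control the log2 difference was -0.03 (adjusted p = 0.972).

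The call for Gata6 was close to the threshold. Relative to control it was lost with the replicate block (log2 difference 0.45, adjusted p = 0.0502) and with normexp (0.47, adjusted p = 0.0846). Without 1 array, it passed only when IFN-β replicate 1 was left out (adjusted p = 0.0334). The other 7 fits gave log2 differences of 0.39 to 0.67 and adjusted p from 0.0511 without IFN-β replicate 2 to 0.181 without control replicate 2. Relative to IFN-β it passed with the replicate block (adjusted p = 0.0265) and without either control array (0.0392 for each) or IFN-β replicate 1 (0.0312). It was lost without any of the other 5 arrays, namely IFN-λ2 replicates 1, 2 and 3 (0.116, 0.0751 and 0.0635) and IFN-β replicates 2 and 3 (0.0886 and 0.111). Within slides, all 5 differences were above 0, from 0.29 to 0.63 on the log2 scale.

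The Cdx factors were dim. The probe of Cdx2 (chr5:148112547-148112606, mm9, minus strand) gave between 3.1 and 6.95 units before the lower threshold was applied. It was not well above background on any of the 8 arrays and was not tested. Cdx2, which defines the intestinal lineage among these factors, was thus not measured in IEC10 cells with this probe.

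Cdx1 (chr18:61178558-61178617, mm9, minus strand) read 122.8 units on the array of control replicate 2 and was at the threshold of 15 on that of control replicate 3. With IFN-λ2 it read 23.8, 17.0 and 23.0 units, and with IFN-β 21.8, 22.8 and 16.7 units. It was well above background on 4 of the 8 arrays, of which 1 was a control, 2 were IFN-λ2 and 1 was IFN-β. The high value of control replicate 2 stands alone, and all groups overlapped. The log2 difference of IFN-λ2 to control was -1.03 (95% confidence interval -2.84 to 0.78, adjusted p = 0.396), and that of IFN-β was -1.08 (adjusted p = 0.638). These differences rest on the 2 control arrays. A fit without 1 of them has a single control sample, which is assumed to vary like the arrays of the other groups. Without control replicate 3 both passed the test as lower than control (-2.55, adjusted p = 0.0045, and -2.60, adjusted p = 0.00808), and without control replicate 2 both turned positive (0.49 and 0.43) and did not pass.

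Klf5 (chr14:99702656-99712388, mm9, plus strand) has a probe of 60 bases whose ends are 9733 bases apart in the genome, so that it spans an exon junction. It read 4728 and 5097 units in the controls, 4269, 4519 and 4139 units with IFN-λ2, and 4746, 4476 and 4331 units with IFN-β. The IFN-λ2 arrays lay below the controls without overlap, at a log2 difference of -0.19 (SE 0.0789, adjusted p = 0.147). The log2 difference of IFN-β to control was -0.12 (adjusted p = 0.612).

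Klf4 (chr4:55540167-55540226, mm9, minus strand) read 2146 and 1577 units in the controls, 1552, 1466 and 1674 units with IFN-λ2, and 1774, 1895 and 2002 units with IFN-β. The controls, which differ by more than the arrays of either treated group, overlapped with both. IFN-λ2 lay below IFN-β without overlap, at a log2 difference of -0.27 (95% confidence interval -0.57 to 0.02, adjusted p = 0.227).

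Elf3 (chr1:137150328-137150387, mm9, minus strand) read 858.2 and 880.5 units in the controls, 1063, 1177 and 1004 units with IFN-λ2, and 854.5, 919.8 and 840.5 units with IFN-β. The IFN-λ2 arrays were the 3 highest. Their log2 difference was 0.31 both to control (SE 0.0889, adjusted p = 0.0528) and to IFN-β (SE 0.0796, adjusted p = 0.0525), just outside the threshold. Both passed with the value table that the authors deposited (adjusted p = 0.0485 and 0.0475) and where only probes well above background were tested (0.0407 and 0.0395). Between IFN-β and control the log2 difference was 0.00 (95% confidence interval -0.21 to 0.21).

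**Figure D2:**
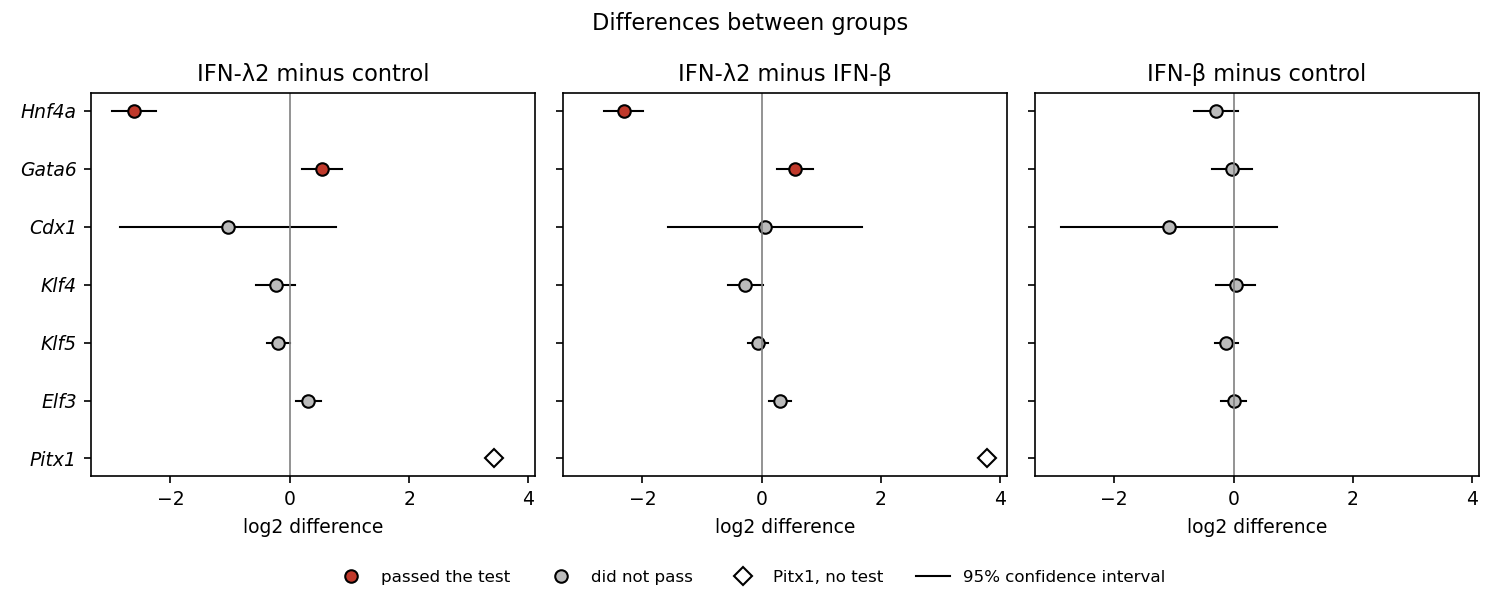
Log2 differences between groups for the 6 members tested, with 95% confidence intervals that are not adjusted for the number of probes, and for Pitx1 without a test. Red points passed the test. Hnf4a at -2.61 and Gata6 at 0.53 passed relative to control, Hnf4a at -2.32 and Gata6 at 0.56 passed relative to IFN-β, and none passed for IFN-β relative to control. Pitx1 is left out of the last panel, where both groups are near background.

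Pitx1 (chr13:55926417-55926476, mm9, minus strand) is among the genes that the study singled out on these arrays, so its values are a description without a test. It read 221.5, 251.4 and 153.7 units with IFN-λ2. Before the threshold was applied, the control arrays read 6.58 and 24.4 units and the IFN-β arrays 8.44, 11.3 and 12.4 units. Pitx1 was well above background on all 3 IFN-λ2 arrays, on the array of control replicate 3 and on no IFN-β array. The lowest IFN-λ2 value was above the highest of the other 5 arrays.

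The mean of Pitx1 with IFN-λ2 was 209 ± 50.02 units (SD, n = 3). Over the IFN-β arrays this was higher by at least 9.81-fold, where each array was taken at the lowest signal that was well above background on it or at the probe's own value if higher. Relative to control, where 1 of 2 arrays measured Pitx1, the same bound was at least 9.28-fold. Within slides, the log2 difference of IFN-λ2 to control was 4.07 and 2.66, and that to IFN-β was 3.88, 4.07 and 3.36, with values at the threshold in the comparison. With normexp the log2 differences were 2.04 relative to control and 2.17 relative to IFN-β, and without the threshold they were 4.01 and 4.27. Signals not above background enter these differences, so their size cannot be read beyond the bounds above. In the deposited table the IFN-λ2 arrays had 205.5, 232.6 and 141.6 units and the IFN-β arrays stood at 15.

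For Hnf4a, Gata6, Elf3, Klf5 and Klf4, the order of the groups by mean was as follows. Hnf4a was highest in control, then IFN-β, then IFN-λ2, and only the step to IFN-λ2 passed the test. Gata6 was highest with IFN-λ2, and control and IFN-β did not differ beyond their spread. Elf3 had the same order of IFN-λ2 first, with IFN-β and control close together. In Klf5 control came first and IFN-λ2 last, and in Klf4 IFN-β came first and IFN-λ2 last, with no step past the test.

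Of the 6 members tested, 1 was higher and 1 was lower with IFN-λ2 relative to control. Over the 20834 genes tested, 10.3% were higher and 8.42% were lower in that comparison. Relative to IFN-β it was again 1 higher and 1 lower, against 5.74% and 5.97% of all genes. For IFN-β relative to control no member passed (at an unadjusted p under 0.05 also none of the 6), against 1.5% of all genes that were higher and 0.197% that were lower. The groups did not overlap for 4 of the 6 members between IFN-λ2 and control, against 50.1% of all genes. They did not overlap for 4 between IFN-λ2 and IFN-β, against 32.7%, and for 1 between IFN-β and control, against 26.5%. The comparisons with control share the same 2 arrays.

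The balance over all genes moved with the background correction and the normalization. Relative to control, 2142 genes were higher and 1754 lower with IFN-λ2, and 1265 and 548 with normexp, where the median of all genes shifted to 0.11 from 0.01 on the log2 scale. With quantile normalization more were lower (2066) than higher (1933). Relative to IFN-β, 1195 were higher and 1243 lower, and 841 and 353 with normexp. There quantile normalization gave 1362 higher and 1270 lower.

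The arrays carried 153 negative controls each, with medians of 3.31 to 8.07 units, and the highest was on IFN-λ2 replicate 2. Between 20992 and 24252 probes per array were well above background, and no probe was saturated. Of 8 epithelial markers, such as Cdh1, Epcam and Krt8, all were well above background on every array, with summed signals of 306300 to 321900 units in control, 346600 to 369400 with IFN-λ2 and 308900 to 352000 with IFN-β, most of it from Krt18 (log2 difference to control 0.24 with IFN-λ2, adjusted p = 0.0916). Relative to control, Cdh1, Krt19 and Ocln were higher with IFN-λ2 (log2 differences 0.44, 0.41 and 0.58) and Cldn4 was lower (-0.54, adjusted p = 0.0077), and their part in the results was not tested. Of 6 fibroblast markers, none was measured on all 8 arrays, Col3a1 and Pdgfra were measured on none, and their sum was 109.2 to 158 units over all arrays. Of 6 leukocyte markers, Csf1r, Itgam, Cd68 and Cd3e were well above background on every array, whereas Ptprc, which defines leukocytes, was on no control or IFN-λ2 array and on 2 of 3 IFN-β arrays. Their sum was 10740 and 14360 units in control, 8583 to 10850 units with IFN-λ2 and 9263 to 16360 units with IFN-β. Most of this sum is Itgam and Csf1r, and the lower sum with IFN-λ2 is that of Itgam (means of 7122 units in control and 2870 with IFN-λ2, adjusted p = 0.143), whose other 2 probes gave log2 differences of 0.69 and 0.04. None of the 6 leukocyte markers passed the test in any comparison, and their part in the results was not tested. Of 4 endothelial markers, Kdr was measured on every array, Pecam1 on all but 1, and Cdh5 and Tek on none, with sums of 827.9 to 1012 units. All 6 interferon-stimulated genes on the list rose with both cytokines, with a median log2 difference of 3.76 for IFN-λ2 and 3.62 for IFN-β, and Ifit1 alone of them passed the test between the cytokines (log2 difference 0.71, adjusted p = 0.00245).

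Most other transcription factors of the absorptive epithelium and the endoderm did not pass the test. As reference for this list and those below, 10.3% of all genes tested were higher and 8.42% lower with IFN-λ2 relative to control. Relative to IFN-β the shares were 5.74% and 5.97%. Of 20 genes of this list, 16 were tested. Relative to control, 4 were higher with IFN-λ2, among them Foxa1, Creb3l3 and Maf, 1 was lower (Grhl3) and 11 did not pass, with a median log2 difference of 0.15 against 0.01 for all genes. Relative to IFN-β, 3 were higher, among them Foxa1 and Creb3l3, and 1 was lower (Grhl3). None passed for IFN-β relative to control.

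Foxa1, a forkhead factor that opens chromatin in endoderm, read 685.9 and 527.2 units in the controls, 2144, 1664 and 1726 units with IFN-λ2, and 557.0, 492.1 and 493.0 units with IFN-β. The IFN-λ2 arrays stood clear of the others. The rise was 1.61 on the log2 scale relative to control and 1.84 relative to IFN-β (SE 0.139, adjusted p = 0.000652). Among the tested genes of this list it was the only one with a change over 1 relative to both control and IFN-β. Hnf4g, the paralog of Hnf4a, and Foxa3 were at the threshold on all arrays.

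Creb3l3, a membrane-bound factor of liver and gut lipid metabolism, had a log2 difference to control of 0.81 (SE 0.171, adjusted p = 0.0191). Maf, a bZIP factor, had one of 0.72 (SE 0.171, adjusted p = 0.0287), and its other probe gave 1.03. Grhl3, a grainyhead-like factor of epithelial barriers, fell with IFN-λ2 by 0.68 on the log2 scale relative to IFN-β (SE 0.132, adjusted p = 0.0197). With the replicate block the call of Creb3l3 was lost relative to control (adjusted p = 0.0655) and to IFN-β (0.107).

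Among genes of the mature enterocyte that Hnf4a or Cdx2 are known to bind or activate, more passed as higher than as lower with IFN-λ2. Over all genes tested, 10.3% were higher and 8.42% lower relative to control, and 5.74% and 5.97% relative to IFN-β. Of 28 genes of this list, 19 were tested. Relative to control, 7 were higher with IFN-λ2 (Lct, Cdh17, Sis, Heph, Krt20, Fabp2 and Enpep), 1 was lower (Mep1a) and 11 did not pass, with a median log2 difference of 0.08 against 0.01 for all genes. Relative to IFN-β, 4 were higher (Cdh17, Lct, Krt20 and Fabp2) and 1 was lower (Mep1a). Cdh17 passed the filter on dim probes through the IFN-λ2 arrays alone and so had to differ, and without it 6 were higher than in control and 3 higher than with IFN-β. None passed for IFN-β relative to control. The apolipoprotein genes Apoa1, Apoa4 and Apob, the glucose transporter gene Slc5a1 and Rbp2 were at the threshold on all arrays.

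Mep1a, a subunit of the brush border protease meprin, had the same direction as Hnf4a. It read 90.7 and 100.5 units in the controls, 40.5, 35.3 and 34.4 units with IFN-λ2, and 89.9, 84.8 and 89.1 units with IFN-β. The 3 IFN-λ2 arrays lay below all others. The log2 difference to control was -1.38 (SE 0.0949, adjusted p = 0.000185), and with normexp the log2 difference was -0.49 and did not pass (adjusted p = 0.0909).

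Lct, which encodes lactase, had the opposite direction. It read 65.2 and 51.7 units in the controls, 161.9, 132.7 and 160.5 units with IFN-λ2, and 70.1, 72.5 and 79.0 units with IFN-β. Its rise relative to control was 1.38 on the log2 scale (SE 0.136, adjusted p = 0.000942). Sis, which encodes sucrase-isomaltase, had a log2 difference to control of 1.19 (SE 0.330, adjusted p = 0.0487), and its values overlapped with those of IFN-β. It was well above background on 1 of the 2 control arrays, and the call held in 6 of 17 alternatives.

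Cdh17, the cadherin of intestinal epithelium, was at the threshold on all control and IFN-β arrays and read 39.8, 30.3 and 41.7 units with IFN-λ2, of which the second value was not well above background, so no fold is given. Krt20, an intermediate filament of differentiated enterocytes, rose by 0.72 on the log2 scale relative to control (SE 0.0948, adjusted p = 0.00308). Heph, a ferroxidase for iron export, had a log2 difference of 0.81 (SE 0.222, adjusted p = 0.0459), which was lost with the replicate block (adjusted p = 0.0901) and held in 4 of 17 alternatives. The call of Enpep, an aminopeptidase, was lost with the replicate block (adjusted p = 0.0541) and with normexp (0.0851), and held in 7 of 17 alternatives.

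Factors of the secretory and stem cell lineages showed no common direction. Of 20 genes, 11 were tested. Relative to control, Myc and Gfi1 were higher with IFN-λ2, Xbp1 and Id1 were lower and 7 did not pass. Relative to IFN-β, Bhlha15 and Gfi1 were higher and Id1 and Id3 lower. Gfi1 was at the threshold on all control and IFN-β arrays and well above background on 1 IFN-λ2 array alone. It passed the filter on dim probes through the IFN-λ2 arrays and so had to differ, and without it 1 gene was higher in each comparison. The call of Id3 held in 1 of 17 alternatives and was lost with the replicate block (adjusted p = 0.0608). Xbp1, a factor of the secretory unfolded protein response, had a log2 difference to control of -0.73 (SE 0.156, adjusted p = 0.0209). Myc, a proliferation factor, had one of 0.63 (SE 0.146, adjusted p = 0.0273). Bhlha15, a factor of secretory cells, had a log2 difference to IFN-β of 0.75 (SE 0.148, adjusted p = 0.0214). Id1, an inhibitor of bHLH factors, had one of -0.46 (SE 0.0694, adjusted p = 0.00788). With the replicate block the calls of Xbp1, Myc and Bhlha15 were lost (adjusted p = 0.0623, 0.0853 and 0.0674).

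Of 14 other Klf genes, 12 were tested and 1 passed, Klf8. Its log2 difference with IFN-λ2 was -0.86 relative to control (SE 0.226, adjusted p = 0.0407). It was dim, at a mean of 31.5 units in control and 17.4 units with IFN-λ2, the call was lost with the replicate block (adjusted p = 0.114, and 0.0935 relative to IFN-β), and with normexp the sign turned (0.05, adjusted p = 0.883). The other 11 did not pass in any comparison.

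Of 16 other Ets genes, 14 were tested. Relative to control, Elf1 and Etv4 were higher with IFN-λ2 and Elk3, Erf and Ehf were lower. Relative to IFN-β, Etv4 was higher and Elk3 and Erf were lower. The call of Ehf held in 6 of 17 alternatives and was lost with the replicate block (adjusted p = 0.102). The second probes of Elf1 and Etv4 did not pass. Elk3 fell by 0.79 on the log2 scale relative to control (SE 0.136, adjusted p = 0.00897), and its other 2 probes also gave lower values (-0.74 and -0.41). Erf, a repressor, had a log2 difference of -0.48 (SE 0.0722, adjusted p = 0.00569), and Etv4 had one of 0.49 (SE 0.0938, adjusted p = 0.0134), which did not pass with the replicate block (0.056, and 0.0664 relative to IFN-β). Elf1, the relative of Elf3 that is expressed in many tissues, was the only gene of this list called with IFN-β. Its log2 difference to control was 0.60 with IFN-β (SE 0.102, adjusted p = 0.0412) and 0.54 with IFN-λ2. The call with IFN-β was lost with the replicate block (adjusted p = 0.14) and without any single array.

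Among factors of body position, Tbx4, a hindlimb factor, and Pdx1, a factor of duodenum and pancreas, were not well above background on any array.

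**Figure D3:**
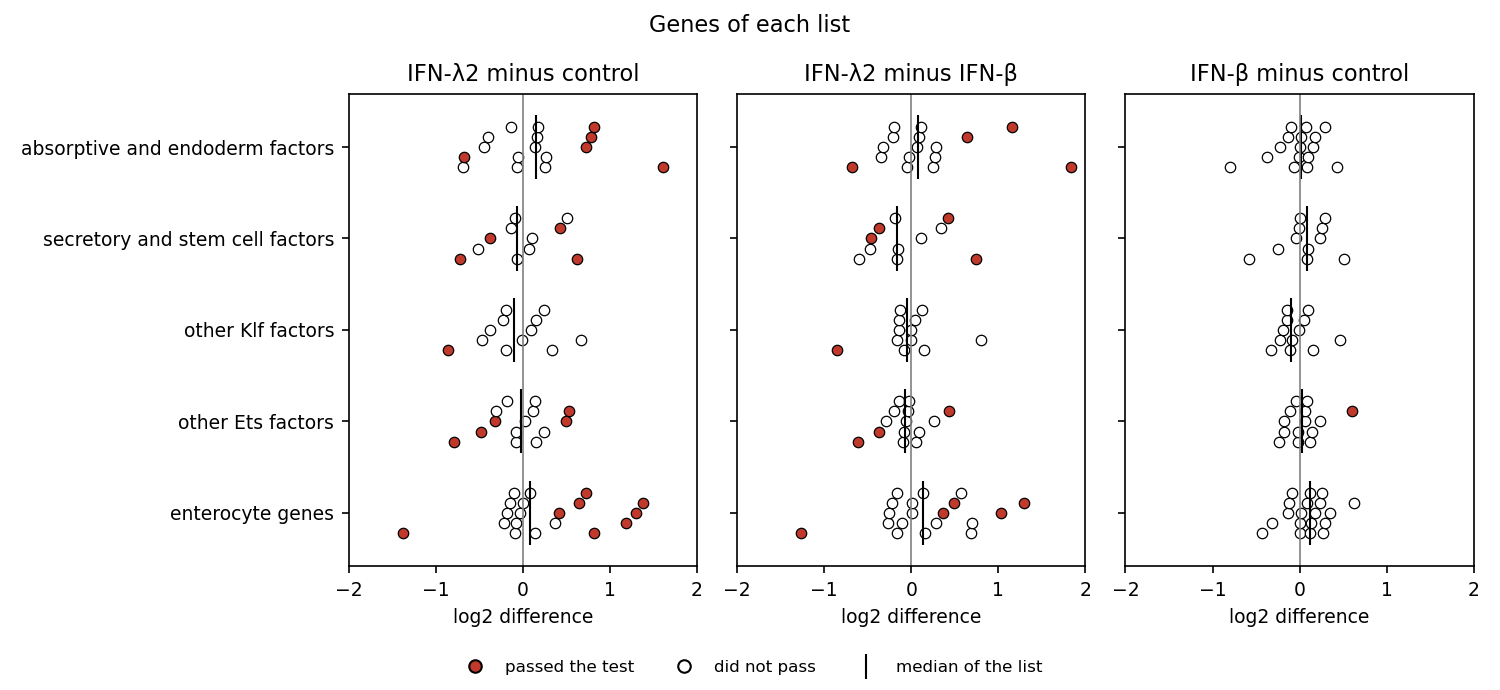
Log2 differences of the tested genes of 5 lists in the 3 comparisons, with 1 point per gene, red where the gene passed the test, and the median of each list as a vertical line. Foxa1 at 1.61 and 1.84 is the rightmost point of the absorptive and endoderm factors, Mep1a at -1.38 and -1.26 is the leftmost of the enterocyte genes, and 1 gene, Elf1, passed for IFN-β relative to control.

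The probes whose pattern over the 8 arrays was most like that of Hnf4a and Pitx1 were looked for among 22488 candidates. Likeness is the root mean square difference of log2 values over the arrays, after each probe's mean was subtracted. For Hnf4a the 5 nearest were Clec18a (0.186), Erc2 (0.220), Slurp1 (0.230), Gc (0.308) and Tac1 (0.314). Clec18a read 149.5 and 138.3 units in the controls, 20.2, 19.0 and 22.1 units with IFN-λ2, and 85.1, 111.2 and 115.0 units with IFN-β. Gc, which encodes the vitamin D-binding protein, read 220.8 and 239.1 units in the controls, 42.5, 53.4 and 46.5 units with IFN-λ2, and 165.6, 274.3 and 191.1 units with IFN-β. With IFN-λ2, Clec18a was well above background on 1 of 3 arrays, and Erc2 was at the threshold on all 3. Both have a second probe, which was well above background on 2 of 8 arrays for Clec18a and on 8 for Erc2, where the log2 difference of IFN-λ2 to control was -0.71 and did not pass the test (adjusted p = 0.186). Both probes of Gc gave similar values (-2.28 and -2.15).

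For Pitx1 the 5 nearest were Mmp7 (0.204), Lrrc31 (0.236), a transcript known by its Ensembl identifier alone (0.308), Napsa (0.331) and 0610040J01Rik (0.334). Pitx1 was at the lower threshold on 4 of the 8 arrays, so its pattern and this ranking rest in part on values set to that threshold. Lrrc31 was well above background on 5 of the 8 arrays and the Ensembl transcript on 4. Mmp7, the matrix metalloproteinase matrilysin, read 358.1 and 511.3 units in the controls, 4498, 6484 and 4827 units with IFN-λ2, and 422.8, 420.7 and 402.0 units with IFN-β. Napsa, which encodes the aspartic protease napsin A, read 62.9 and 73.1 units in the controls, 624.5, 741.0 and 613.0 units with IFN-λ2, and 84.9, 58.3 and 69.4 units with IFN-β. These probes share their arrays with Pitx1 and were chosen for their likeness, so no test is given.

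**Figure D4:**
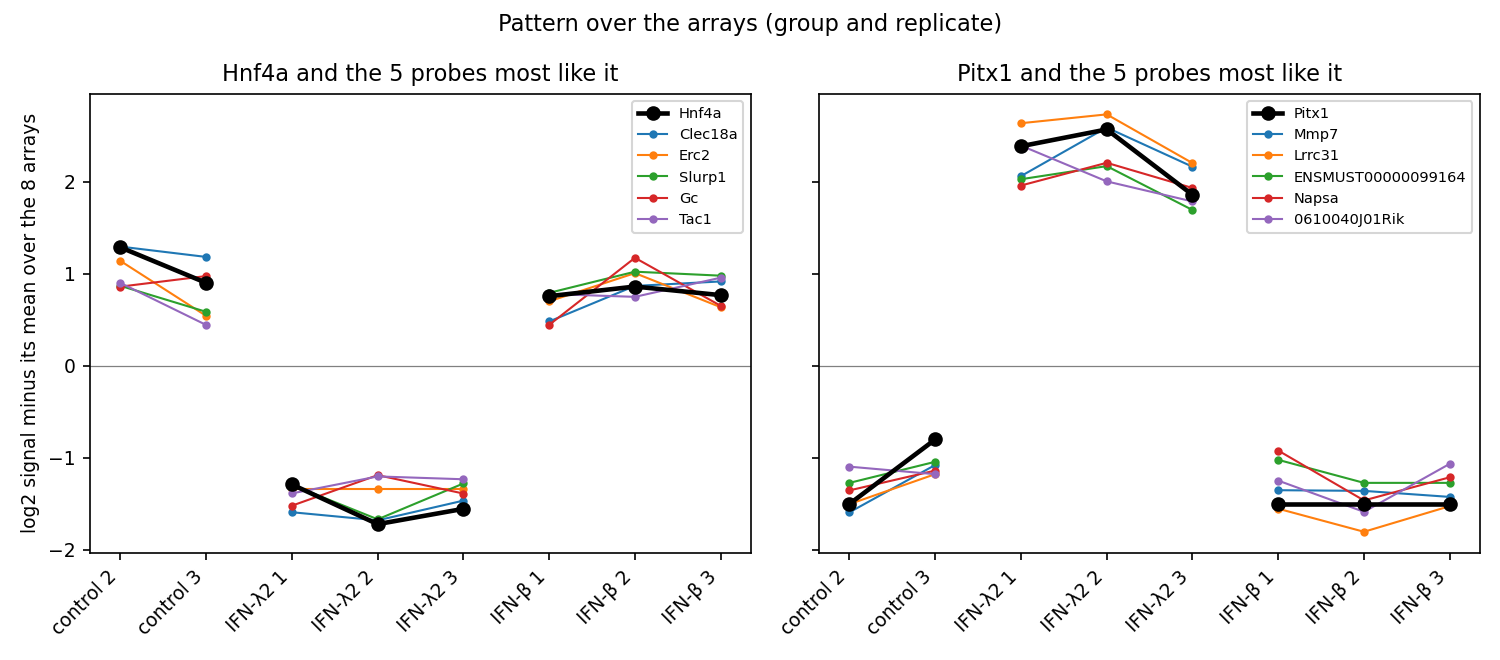
Log2 signal minus its mean over the 8 arrays, by array, for Hnf4a and Pitx1 (thick black lines) and the 5 probes nearest to each (thin lines). Lines join arrays of a group and stand for no order. The probes near Hnf4a are low on the 3 IFN-λ2 arrays and high on the other 5, and those near Pitx1 are high on the 3 IFN-λ2 arrays and low on the other 5.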

How the data were processed

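RNA of 8 samples was measured on 1-color Agilent arrays. The labels name Trizol for the extraction and the methods a column kit. The authors read the scans with Feature Extraction 10.7.3.1 and deposited each feature's background-subtracted intensity, without scaling across arrays. The value table the authors deposited holds linear intensities, which were the values used here times a constant per array between 0.909 and 0.928, with a minimum of 15. Following the study's methods, features that were flagged, outliers, outside 1.42 times the interquartile range of their copies or with a pixel variation over 0.5 were left out (313 to 424 per array), copies of a probe were combined by their geometric mean, each array's 75th percentile was brought to 1500, and values under 15 were set to 15. The scale factors lay between 0.691 and 0.769.

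Probes above 15 on at least 2 arrays (25971) were tested on the log2 scale with limma 3.58.1 in R 4.3.3, with 3 group means over all 8 arrays, no block, and Benjamini-Hochberg adjustment over all probes at 0.05. A gene is represented by its probe with the highest mean signal. The fit was also run on simulated data, drawn as independent normal values without the lower threshold. Only brighter probes were shifted there, so the simulation does not cover dim members such as Hnf4a and Cdx1. The number of arrays limits the precision. Other steps used scipy 1.17.1, pandas 2.3.3 and numpy 2.4.6 under Python 3.11.15. The members and lists were chosen with earlier results of these data known. All members are named, and some items of the lists are not reported here. Of each list, up to 4 genes are named that passed the test with the largest change and were well above background on every array of at least 1 group, while Gfi1, Id3, Ehf, Cdh17, Krt20, Fabp2 and Enpep, which also passed, fall outside this rule and were chosen after their values were seen. The likeness search was made for Pitx1 and each member with a call and a 2-fold change, which was Hnf4a.

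Replicate numbers are those of the labels. Replicate 1 of the control group was not analysed here. Each slide holds 1 replicate number, and each group has its own position on the slide, so that position and treatment cannot be told apart. Deviations from the group means correlated between IFN-λ2 and IFN-β arrays of the same slide (0.181, 0.257 and 0.298 across probes). They did not between control and IFN-λ2 (-0.00109 and -0.0137) or IFN-β (0.0991 and -0.0627). Whether the samples are paired beyond sharing a slide was not tested, and the main fit took no account of the slide. Gene names and coordinates are those of the array files (mm9), whose gene annotation for exons and UTRs was not used here. Promoters are from RefSeq on GRCm38.p6.

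Alternatives were normexp (offset 50), quantile normalization, no lower threshold, 2 other filters, the deposited table, the replicate block, only the groups compared, the methods' t-test and leaving out each array.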

Additional observations from a re-analysis of the deposited data

How the results depend on the processing

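The test called 2 of the 6 members for IFN-λ2 relative to control, Hnf4a and Gata6. This count was 1 with normexp, without the filter on dim probes, with the replicate block, with only the groups compared and with the methods' t-test after Benjamini-Hochberg adjustment, and 0 with the methods' own threshold (unadjusted p of 0.001 and a fold of 2). It was 3, with Elf3 added, in the deposited table, with quantile normalization and with only probes well above background. Without 1 array it was 1 to 2. Relative to IFN-β it was 2, 3 in the deposited table and with only probes well above background, and 1 with normexp, without the filter on dim probes and with the methods' t-test under either threshold, and 1 to 2 without 1 array. For IFN-β relative to control it was 0, and 0 to 1 without 1 array, the 1 being Cdx1 without control replicate 3. Hnf4a passed at an adjusted p under 0.05 in all 9 alternative fits and all 8 fits without 1 array, for both comparisons with IFN-λ2. The replicate block ended, among the members, only the call of Gata6 relative to control (adjusted p = 0.0502).

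Over all genes, 3896 passed for IFN-λ2 relative to control (1341 to 4356 over the alternatives, 2220 to 4157 without 1 array), 353 for IFN-β (77 to 416, 254 to 324) and 2438 between the cytokines (1194 to 2768, 1232 to 2295). The lowest counts came from the methods' t-test for both comparisons with control and from normexp between the cytokines. For IFN-λ2 relative to control, the list counts ranged from 0 to 5 for the absorptive and endoderm factors, 0 to 4 for the secretory and stem cell factors, 0 to 3 for Klf, 1 to 5 for Ets and 1 to 8 for the enterocyte genes. All 6 interferon-stimulated genes passed there in each. Relative to IFN-β the list counts were 1 to 5 for the absorptive and endoderm factors and 2 to 5 for the secretory and stem cell factors. For Klf, Ets and enterocyte genes the ranges were 0 to 1, 0 to 4 and 3 to 6. With 2 control arrays, and with Cdx1, Cdx2 and Pitx1 near background, small changes of these genes were not detectable. The cause of the changes between settings was not tested.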
